A study of Mus musculus with 2 samples.

Results

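Occupancy by Tcf3 was examined at 9 genes of the Nodal pathway in E14 mouse embryonic stem cells: the ligands Nodal and Gdf3, the co-receptor Tdgf1, the receptors Acvr1b and Acvr2b, the transcription factor Foxh1, the secreted inhibitors Lefty1 and Lefty2, and the intracellular inhibitor Skil. They were chosen by gene name, as every probe whose array annotation gave one of these names, alone or joined by a hyphen to a neighbouring gene. All 9 were found among the 17099 genes named on the arrays, and they held 234 of the 474380 probes. Feeder-free E14 cells, an established line, were cross-linked, the chromatin was immunoprecipitated, and amplified immunoprecipitate labelled with Cy5 was hybridised with input DNA labelled with Cy3 to promoter arrays. The labels list several antibodies without tying one to the arrays, so Tcf3 is taken from the sample titles. Array 1 carried Gdf3, Lefty1, Lefty2 and Skil, and array 2 carried Nodal, Tdgf1, Acvr1b, Acvr2b and Foxh1. Each gene was thus measured once, with no replicate array and no control immunoprecipitation, so the number of arrays limits the precision and no test between samples was possible.

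Nodal is a ligand of the TGF-beta superfamily that signals through activin receptors. Type II receptors such as Acvr2b and type I receptors such as Acvr1b bind it together with the co-receptor Tdgf1 (Cripto), and the Smad2 and Smad3 proteins they phosphorylate join Smad4 and Foxh1 on DNA. Among the targets are Nodal itself and the Lefty genes, whose products block the ligand and its co-receptor, which forms a negative feedback loop. In the mouse embryo the pathway maintains the epiblast, patterns mesoderm and endoderm and sets left from right. Tcf3, now named Tcf7l1, is the Tcf/Lef factor best known in embryonic stem cells as a repressor that links the Wnt pathway to pluripotency genes.

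Values are log2 ratios of Cy5 over Cy3, that is of immunoprecipitate over input, with the median probe of each array at 0. A set joins each probe to the closest one before it and the closest one after it, within 1000 bp, and a gene is described by the mean of its highest set, with the SD over the 2 or 3 probes of that set. Such an SD shows how unevenly neighbouring probes read, and says nothing of how a repeat experiment would vary. A probe was called when its set mean and the single probes stood out from the scatter below the array median, and a gene was called when at least 1 of its probes was. Coordinates are those of the array annotation, and the sources used here do not name its genome build.

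The highest sets fell in the following DNA. The 3 probes of Lefty2 were all called and hold the highest set mean of the 9 genes. Capitals mark the letters AATCCACA, a form of the element that Foxh1 recognises.
Lefty2, chr1:180868337-180868382, log2 ratio 2.75: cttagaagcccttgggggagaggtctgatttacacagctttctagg
Lefty2, chr1:180868507-180868557, log2 ratio 2.72: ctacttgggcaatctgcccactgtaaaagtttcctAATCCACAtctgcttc
Lefty2, chr1:180868648-180868696, log2 ratio 2.06: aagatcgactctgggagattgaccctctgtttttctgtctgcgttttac

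The highest set of Nodal lay upstream of the gene and is shown because the call of the gene rests on its first probe.
Nodal, chr10:60933722-60933766, log2 ratio 2.73: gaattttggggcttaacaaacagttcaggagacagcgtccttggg
Nodal, chr10:60934325-60934372, log2 ratio 1.57: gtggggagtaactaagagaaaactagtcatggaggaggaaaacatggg
Nodal, chr10:60934430-60934485, log2 ratio 1.67: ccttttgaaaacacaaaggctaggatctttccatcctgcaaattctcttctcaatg

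Both called probes of Gdf3 are adjacent, and the probe with the highest single value of all 234 stands apart from them within the same gene.
Gdf3, chr6:122645380-122645434, log2 ratio 2.45: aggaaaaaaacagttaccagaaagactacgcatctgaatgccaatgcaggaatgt
Gdf3, chr6:122645580-122645639, log2 ratio 2.15: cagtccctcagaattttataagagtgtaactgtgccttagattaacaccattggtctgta
Gdf3, isolated probe, chr6:122649761-122649820, log2 ratio 3.90: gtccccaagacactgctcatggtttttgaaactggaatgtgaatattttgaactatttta

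The called probes of Skil are shown for their base composition, since they are far richer in G and C than those of Lefty2, Nodal or Gdf3.
Skil, chr3:30906180-30906224, log2 ratio 2.62: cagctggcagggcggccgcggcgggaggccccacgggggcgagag
Skil, chr3:30906675-30906719, log2 ratio 2.78: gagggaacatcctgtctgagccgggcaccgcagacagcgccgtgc

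Tcf3 enrichment was called at 4 of the 9 genes: both ligands, Nodal and Gdf3, and 1 extracellular and 1 intracellular inhibitor, Lefty2 and Skil. Of all genes on both arrays 15.3% were called, with a share of 24.9% on array 1 and 5.47% on array 2. Among genes with 15 to 35 probes, as all 9 have, the shares were 23.8% and 4.92%. By array, 3 of 4 genes were called on array 1 and 1 of 5 on array 2. The background by array depended on the spots used: with the spots measured in both channels alone, array 1 had a share of 18% and array 2 of 11.9%, with the same 3 of 4 and 1 of 5 counts for the pathway genes. Among genes with 15 to 35 measured probes, a range that leaves out Acvr1b with 13, those shares were 21% and 16.5%. The count of 4 also depended on how the scatter of set means was taken. Here it was derived from that of single probes, and with a scale taken from the set means themselves 3 of the 9 genes were called, without Nodal, against 10.2% of all genes. The median of the highest set mean was 1.35 over the 9 genes, against 1.15 over all genes. By array, it was 2.00 over the 4 genes of array 1, against 1.21, and 1.11 over the 5 genes of array 2, against 1.07. With the trend of the ratio with GC content subtracted, these medians were 1.86 against 0.98 on array 1 and 0.74 against 0.83 on array 2. The co-receptor, both receptors, Foxh1 and Lefty1 were not called. Part of the background rests on surrogate values, which the scanner software writes where a signal is not above background: 26.4% of the called genes of array 1 and 3.86% of those of array 2 had called probes with surrogates alone. No called probe of the 9 genes held a surrogate.

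**Figure D1:**
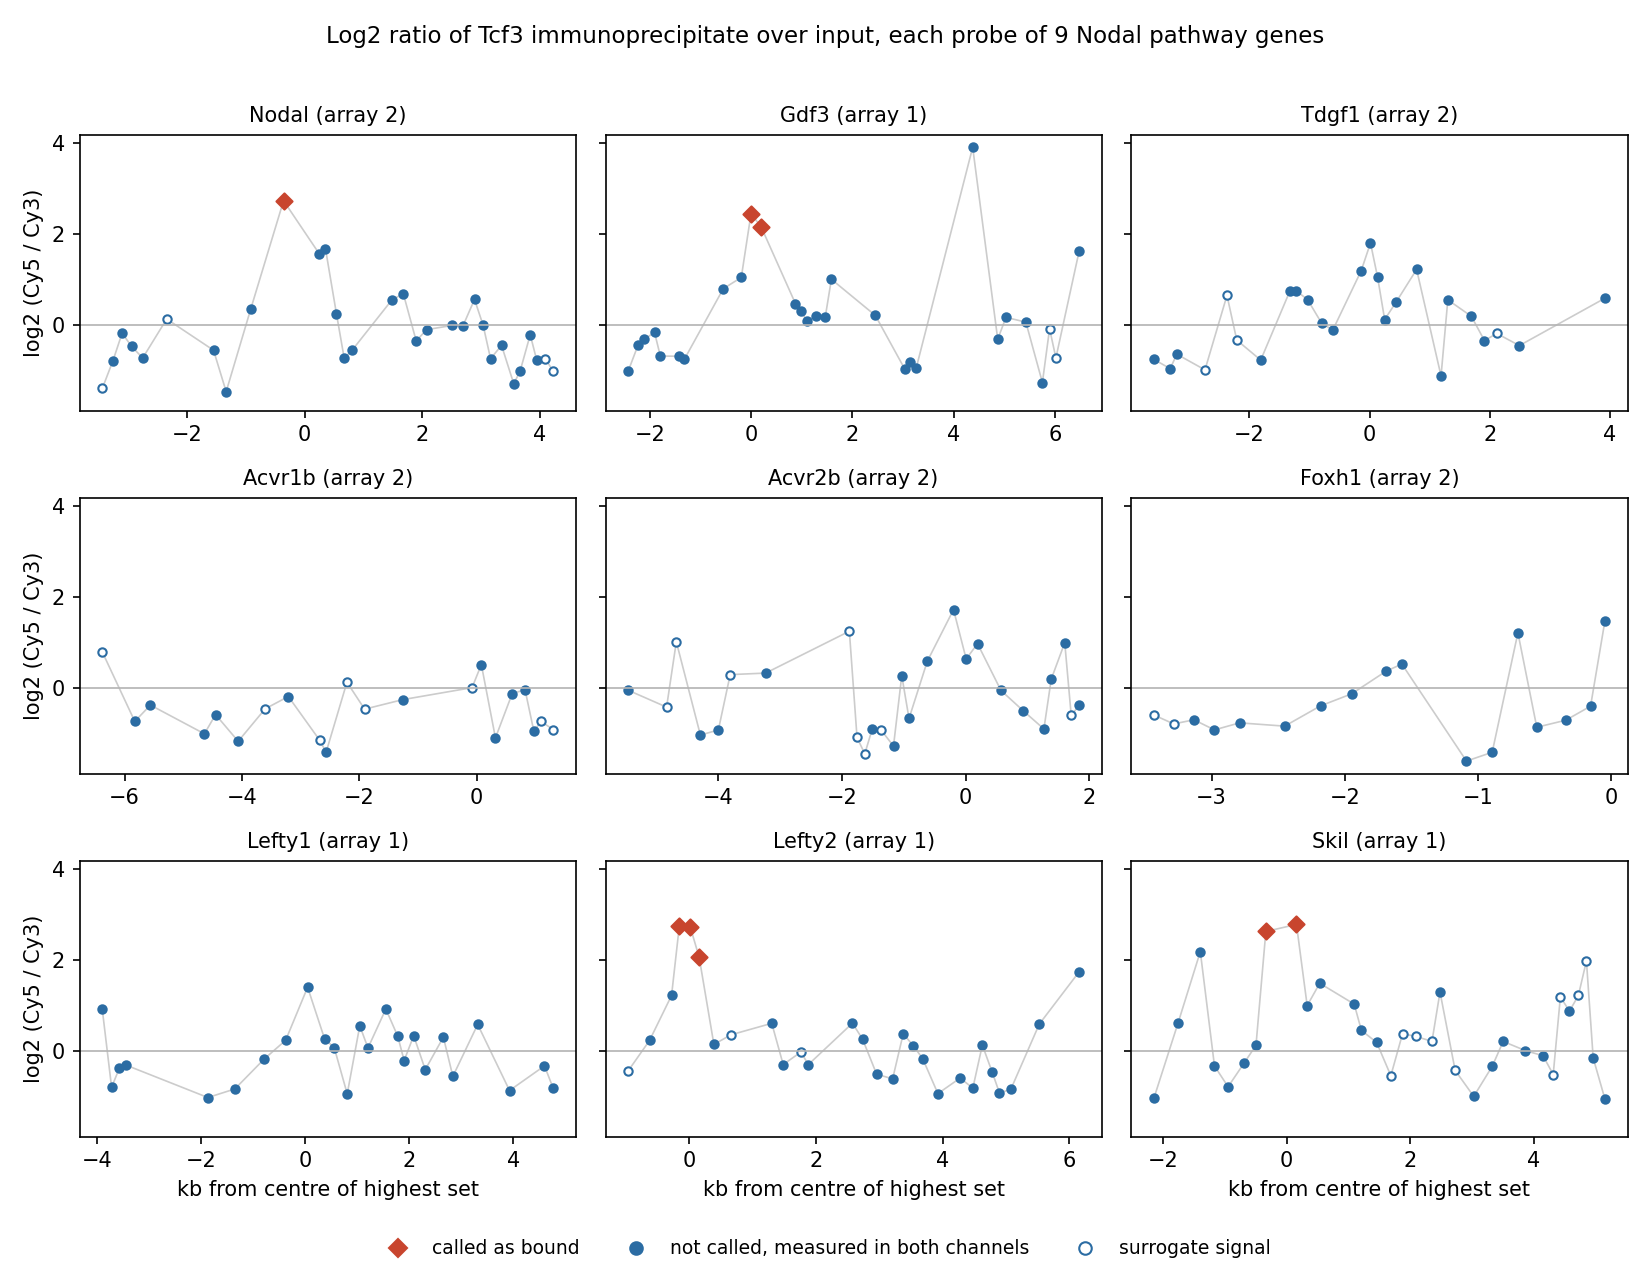
Log2 ratio of immunoprecipitate (Cy5) over input (Cy3) of each probe of the 9 genes, against its distance in kb from the centre of the gene's highest set. Red diamonds are called probes, filled circles probes measured in both channels and open circles probes with a surrogate signal. Lefty2, Nodal, Gdf3 and Skil each have 1 or more called probes above 2, Gdf3 has a separate probe at 3.90, and the other genes stay below 2.

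**Figure D2:**
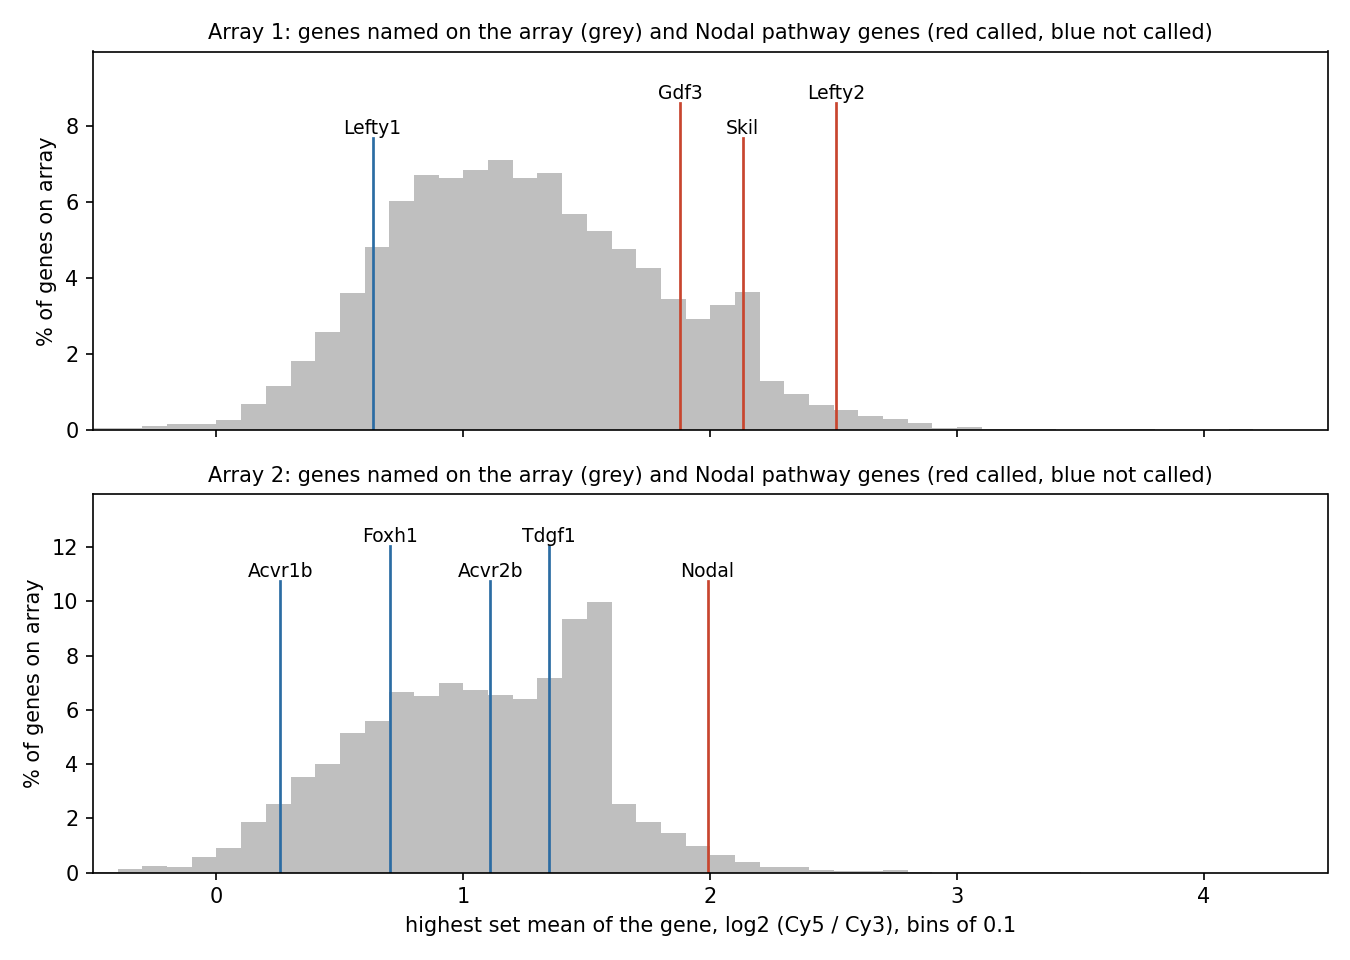
Highest set mean of every gene named on each array, as the percentage of genes per bin of 0.1 on the log2 scale (grey bars), with the genes of the Nodal pathway as vertical lines, red when called and blue when not. Lefty2 and Nodal lie in the upper tail of their arrays, and Lefty1 and Acvr1b in the lower part.

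Nodal, the ligand, had a region of enrichment upstream of its gene. Its highest set averaged 1.99 ± 0.64 (SD, 3 probes), a 3.97-fold excess of immunoprecipitate over input, and ranked 161 of 8489 genes on array 2. The 3 probes read 4971, 2103 and 1825 units of processed Cy5 intensity, against 766, 724 and 585 units of Cy3. They form a run of 764 bp with every probe above 1, while the other 28 probes of the gene lay between -1.47 and 0.69. Within the run no probe used lies between positions 60933766 and 60934325 of chromosome 10, so that stretch was not measured. A probe that matches the RefSeq sequence around the start of Nodal places this run at positions -1837 to -1074 relative to that start. The probe just after the start, at 4 to 48, had a log2 ratio of 0.55. The call rests on the probe at 2.73 alone, whose own set averaged 1.55 ± 1.19 (SD, 3 probes). The gene was called under 10 of the 14 alternative settings. It was lost with a set probability of 0.0001, with neighbours within 500 bp, with 2 neighbours on each side, and with the scale of set means taken from the set means themselves, settings under which 12.1%, 14.8%, 14.6% and 10.2% of all genes were called.

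Gdf3, a related ligand expressed in the early embryo, had a highest set mean of 1.88 ± 0.74 (SD, 3 probes; chr6:122645187-122645639), a 3.68-fold excess. The called probes at 2.45 and 2.15 adjoin one at 1.04, and the run spans 453 bp. On array 1 it ranked 1289 of 8610 genes. The isolated probe at 3.90 is a 14.9-fold excess, with 3866 units of Cy5 against 306 units of Cy3, and ranked 95 among all probes of array 1. Its next neighbour was at -0.31, and it passed the calling rule neither with all spots nor with the measured ones, with or without the GC trend. Gdf3 itself was called under 14 of 14 alternatives, with highest set means of 1.61 to 2.30.

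Tdgf1, the co-receptor that Nodal needs to engage its receptors, reached 1.35 ± 0.40 (SD, 3 probes) and was not called with all spots. Its 3 probes read 1.19, 1.80 and 1.04 and formed a run of 325 bp, at positions -1579 to -1255 relative to the gene start. A single further probe, at 1.22, rose above 1. Most probes of this gene (18 of 25) carry the joint name Tdgf1-Lrrc2, after the neighbouring gene Lrrc2, and all 3 probes of the highest set are among them. The gene was called at 1.50 when the trend of the ratio with GC content was subtracted and at 1.62 when this was done on measured spots, that is those with no surrogate in either channel. At the start of Tdgf1 itself enrichment was low. The 2 probes at -227 to -168 and -117 to -58 had log2 ratios of 0.75 and 0.74. They lie in the promoter below (RefSeq, GRCm38.p6, minus strand, the 250 bases before the start, shown because it holds 2 matches to AATNNACA, in capitals). On that build it is chr9:110946159-110946408, which is not the scale of the array coordinates.
Tdgf1 promoter: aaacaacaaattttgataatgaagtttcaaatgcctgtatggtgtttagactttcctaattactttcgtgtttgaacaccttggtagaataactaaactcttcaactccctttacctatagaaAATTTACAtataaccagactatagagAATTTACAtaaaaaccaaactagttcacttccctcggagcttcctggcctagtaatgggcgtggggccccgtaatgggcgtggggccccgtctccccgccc

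With all spots, the receptor genes and Foxh1 had values near or below the median highest set mean of array 2, which was 1.07. Acvr2b, the type II receptor, had 1.11 ± 0.55 (SD, 3 probes) at positions 379 to 811 relative to its start, downstream of it, and ranked 4020 of 8489. A single probe there, at 1.72, rose above 1. This set was rich in GC (61.5%), and the value was 0.74 with the GC trend subtracted, against an array median of 0.83. With measured spots it was 1.29, against an array median of 0.87, and ranked 1856 of 8379. Foxh1, the factor that carries Smad proteins to DNA, had 0.70 ± 0.98 (SD, 3 probes), in a set whose last probe is named only for the neighbour Ppp1r16a. It ranked 6308 of 8489. With measured spots Foxh1 had 0.89, against the array median of 0.87, and ranked 3922 of 8379. With the GC trend subtracted it had 0.51, against 0.83. Of the 17 probes of Foxh1, 9 carry the joint name Foxh1-Ppp1r16a. Acvr1b, the type I receptor, had the lowest value of the 9 genes, 0.26 ± 0.36 (SD, 2 probes, 1 of them a surrogate). Only 4 of its 21 probes lay above 0, and its highest set mean with measured spots was -0.053. The Cy5 value was a surrogate at 8 of 21 probes of Acvr1b, 8 of 26 of Acvr2b and 2 of 17 of Foxh1, against 51.7% of all probes of array 2.

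The Lefty genes, paired inhibitors that lie side by side on chromosome 1, gave contrasting values. Lefty2 had the highest set mean of the 9 genes, 2.51 ± 0.39 (SD, 3 probes), a 5.69-fold excess that ranked 127 of 8610 genes on array 1. Its 3 called probes read 7554, 6472 and 5589 units of Cy5, against 1325, 1162 and 1590 units of Cy3. With a flanking probe at 1.22 they form a run of 486 bp, close to the average chromatin fragment of 500 bp that the labels give. The other 25 probes of Lefty2, outside the highest set, lay between -0.94 and 1.74 with a median of -0.03. Lefty1 reached 0.63 ± 0.66 (SD, 3 probes; chr1:180912868-180913668) and ranked 7496 of 8610. A single probe of Lefty1 rose above 1, at 1.40, with neighbours at 0.23 and 0.27. All 25 probes of Lefty1 were measured in both channels. With measured spots alone, which changes the array median and the other genes, Lefty1 had 0.67 and ranked 6693 of 8541. With the GC trend subtracted it had 0.84, against a median over the genes of array 1 of 0.98, and ranked 5364 of 8610. With measured spots and the GC trend subtracted it had 0.85, against 0.94, and ranked 4851 of 8541. The longest run of bases shared by a Lefty1 and a Lefty2 probe was 11, over 700 pairs. Probes were compared only with each other, so whether DNA of one gene could bind probes of the other was not tested. The last Lefty2 probe and the first Lefty1 probe are 34639 bp apart, and DNA between them was not tiled under these names. Lefty2 was called under 14 of 14 alternatives and Lefty1 under 0. The difference between the genes was not tested, since each was measured once.

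Skil (SnoN), which binds Smad complexes and represses their targets, reached 2.13 ± 0.99 (SD, 3 probes; chr3:30906180-30906892), a 4.38-fold excess that ranked 591 of 8610. The called probes read 7055 and 7503 units of Cy5, against 1354 and 1293 units of Cy3, and the remaining probe of the set was at 0.99. The mean GC content of this set was 74.1%, against 46.7% for the highest set of Lefty2, 44.7% for that of Nodal and 40.3% for that of Gdf3. With the GC trend subtracted, the mean of this same set was 1.31 and its central probe, at 2.78 before, had 1.54 and was no longer called. The highest set mean of Skil was then 1.54, in an overlapping set shifted to lower coordinates (chr3:30906016-30906719). The gene kept its call under that setting through the other called probe alone, with a GC content of 84.4%. That probe had 2.62 both before and after, since its bin held only 31 probes, under the minimum of 50, and took the array median instead, so its GC trend was not removed. The part of base composition in the value of Skil was therefore not fully tested. Skil also had high probes elsewhere along its tile. One measured at 2.18, with a GC content of 36.7%, lay at lower coordinates than the highest set. With measured spots and the GC trend subtracted, 3 probes of Skil were called. This GC-poor probe was among them, at 2.51 in a set that averaged 1.17. Near the other end of the tile lay 2 surrogate probes at 1.22 and 1.97.

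**Figure D3:**
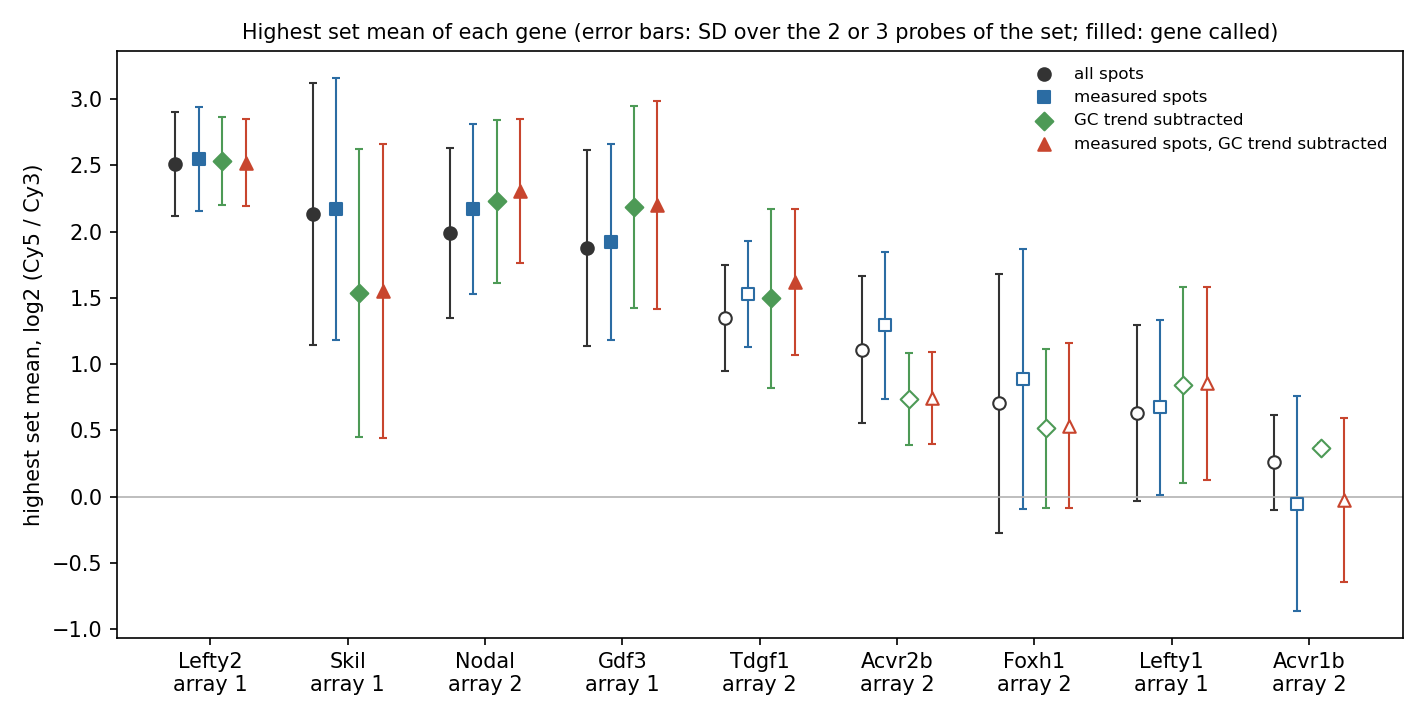
Highest set mean (log2 of immunoprecipitate over input) of each gene under 4 settings, with error bars for the SD over the 2 or 3 probes of the set. Filled symbols are called genes and open symbols are not. Lefty2 stayed between 2.51 and 2.55, Nodal and Gdf3 were higher with the GC trend subtracted, and Skil and Acvr2b were lower.

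Subtracting the GC trend raised some of the 9 genes and lowered others. With the GC trend subtracted, Nodal had 2.23 and ranked 19 of 8489 genes, Gdf3 had 2.18 and ranked 161 of 8610, and Lefty2 had 2.53 and ranked 49. Skil ranked 1304 under the same setting. With measured spots and the GC trend subtracted, Nodal ranked 40 of 8379, and Gdf3, Lefty2 and Skil ranked 209, 81 and 1169 of 8541. With measured spots alone, 4 of the 9 genes were called, against a background of 15% of all genes. With the GC trend subtracted 5 were called, against 13%, and with both steps 5 were called, against 14.4%. The fifth gene was Tdgf1 in both cases. The deposited log ratio column called 4 of the 9, against 8.86% of all genes, and normexp background correction called 7, against 53.8%. The 4 settings under which Nodal was lost called 3. The remaining alternatives called 4, against 15.3% without marked spots and with a minimum set mean of 1, 14.9% without dim input, 17% with a set probability of 0.01 and 20.3% with the scale from the 16th percentile.

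The sequences of the tiles were searched on both strands for the forms CTTTGAA and CTTTGAT of the Tcf/Lef core. They were also searched for AATNNACA, the form searched here for Foxh1. Other forms of the Tcf/Lef core were not searched. CTTTGAA or CTTTGAT occurred in 7 of the 234 probes (2.99%), against 2.79% of all probes, and in 0 of the 26 probes of the highest sets. The 7 probes with either form had log2 ratios between -1.06 and 1.97 with a median of -0.59, and none was called. The probe at 1.97, of Skil, held a surrogate in both channels. AATNNACA occurred in 16 of the 234 probes (6.84%), against 4.45% of all probes. Of those 16, 1 was called, the Lefty2 probe at 2.72. The exact form AATCCACA, searched after this match was seen, is in 0.233% of all probes and in 3 of the 234. The other two are a Lefty1 probe at 0.91 and a Nodal probe at -1.30. Of the 4 genes with a RefSeq promoter in the table, Nodal, Tdgf1, Acvr1b and Acvr2b, none holds CTTTGAA or CTTTGAT there. AATNNACA is in the promoter of Tdgf1 only. Promoters were searched over 300 bases, 250 before the start and 50 after it. Among 32851 RefSeq promoters of that length, 5.14% hold CTTTGAA, 3.73% CTTTGAT and 12.2% AATNNACA. Probes cover only part of the DNA that a fragment carries, so letters between probes were not searched.

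Of a list of 26 other genes of the Nodal and activin pathway, 23 were found by name and 6 were called (26.1%), against 15.3% of all genes. By array, 3 of 12 were called on array 1 and 3 of 11 on array 2, against 24.9% and 5.47% of all genes there. The median highest set mean of the list was 1.31, against 1.15 over all genes, and the values ran between 0.31 and 2.03. By array, the median of the list was 1.12 on array 1, below the 1.21 of all genes there. On array 2 it was 1.32, against 1.07. Called were Ski (2.03), a relative of Skil that also represses Smad targets, the type II receptor Acvr2a (1.99), the signal carrier Smad2 (1.82), the activin subunit gene Inhbb (1.76), Drap1 (1.71), which in the mouse restrains Nodal signalling through Foxh1, and Fst (1.55), whose product follistatin traps activin. Which genes were called depended on the setting. With measured spots 7 were called, against 15% of all genes: the same 6 and the inhibitory Smad7 (2.08). On array 2 that made 4 of 11, against 11.9%. With the GC trend subtracted 4 were called, against 13%: Ski, Drap1, Fst and Cer1, a secreted Nodal antagonist. With both steps 7 were called, against 14.4%: these 4, the activin subunit gene Inhba (1.25) and the target genes Gsc (1.55) and Lhx1 (1.16).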

How the data were processed

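Per the file headers, both arrays were read in Agilent Feature Extraction 9.1.1.1. Each channel has a processed intensity that the authors' software corrected for background and scaled for dye before they were deposited. The log10 ratio that the authors deposited was used only as an alternative. The series' value table equals the deposited error of that log10 ratio in every spot. Here, log2 ratios were centred on each array's median without non-uniform spots (9 on array 1, 18 on array 2). The scale, from values below the median, was 0.72 on array 1 and 0.78 on array 2. A call needed an upper-tail normal probability under 0.001 for the set mean. It also needed either the same for the probe, next to a probe under 0.1, or 2 probes under 0.005 within the set. These probabilities are no test of binding. Cy5 was a surrogate at 30.7% of probes of array 1 and 51.7% of array 2.

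Gene starts came from exact matches of probes to RefSeq promoters (GRCm38.p6), found for 4 genes, with no conversion between builds. Genes of the pathway list were matched by current or older symbol of the RefSeq table. The members, lists and motifs were chosen with earlier results of these data known. Named are all 9 genes and the called genes of the pathway list, up to 8 by height. Cer1, Smad7, Inhba, Gsc and Lhx1, called under alternatives, were named after their values were seen. Alternatives changed the spots used, GC content (bins of 2% with at least 50 probes), background (normexp, offset 50, limma 3.58.1), log ratio, spot marks, input brightness, set probability, neighbours, scale and minimum set mean. One, the scale of set means, was added after the data were seen. Calling was tested on simulated runs planted in independent normal noise, so that test does not cover scatter shared by neighbouring probes. Python 3.11.15 and R 4.3.3 were used.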

Additional observations from a re-analysis of the deposited data

How the results depend on the processing

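No paired analysis was possible because each array carries different probes and each gene was measured once. The count of 4 called genes of the 9 lay between 3 and 5 under all alternatives except normexp background correction, which called 7 of the 9 and 53.8% of all genes. For the pathway list, normexp called 20 of the 23 genes found and the scale of set means taken from the set means called 3. The remaining alternatives called between 4 and 7. The highest set mean of Acvr1b changed sign with measured spots (-0.053), with measured spots and the GC trend subtracted (-0.026) and with 2 neighbours on each side (-0.11). The cause was not tested in any of these cases. Lefty2, Gdf3 and Skil were called under 14 of 14 alternatives, Nodal under 10, Tdgf1 under 3, Acvr2b and Foxh1 under 1 each, the normexp setting, and Lefty1 and Acvr1b under 0. With the deposited log ratio column, 4 of the 9 genes and 8.86% of all genes were called. Surrogate signals limit what can be read at low occupancy.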
